A study of Mus musculus with 30 samples.

Results

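The 44 genes described here act in mitosis and in the G2 phase that leads to it. They were taken by symbol from a table of FPKM values (read fragments scaled to transcript length and to the size of the library) for mouse spinal cord microglia. All 44 were found, 1 row each, among the 24888 rows of the table, and all 44 were among the 11759 genes that reached 1 FPKM in at least 2 of the 30 libraries and were tested. By role they comprise 8 cyclins, kinases and their regulators, 3 members of the chromosomal passenger complex, 6 kinetochore proteins, 6 genes of the spindle checkpoint and of the exit from mitosis, 13 kinesins and other spindle proteins, 3 genes of cytokinesis and 5 chromosome-bound proteins.

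The cells, from C57BL/6J mice, were CD11b-positive cells of the caudal part of the lumbar spinal cord, isolated by magnetic sorting after myelin removal, with RNA amplified by Smart-Seq2. The labels call them microglia, which are the macrophages resident in brain and spinal cord. Each nerve injury group had 2 libraries, and days are counted after the injury (days post injury, dpi). The sciatic nerve was cut (sciatic nerve transection, SNT) and sampled on days 1, 2, 4 and 7. In other mice it was loosely tied (chronic constriction injury, CCI; days 2 and 7), or some of its branches were cut and 1 spared (spared nerve injury, SNI; day 7). Chronic morphine followed a fixed regimen in 4 libraries and an escalating one in 3. The 9 controls were 2 libraries of mice with no treatment or injury (naive), 4 of the fixed saline regimen and 3 of the escalating saline regimen. No allele or transgene is named for any group, and doses, ages and sexes are not given in the sources used here. Whether every library is a separate mouse is not stated, so the p-values measure the spread between libraries, which may be partly technical. In bulk RNA of this kind, more cells in division and more RNA per dividing cell cannot be told apart.

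Defining markers of microglia were high throughout, with a mean of log2(FPKM + 1) over 10 markers from 8.54 to 9.91. Markers of neutrophils and their precursors were also present, with list means from 4.23 to 9.60 over 13 genes, as were 8 monocyte markers, from 0.48 to 5.84. The T cell gene Cd3e was at or below 0.129 FPKM and the endothelial gene Cldn5 at or below 0.13 FPKM in every library. Their lists as a whole were not absent. List means ran from 0.11 to 1.70 for T, B and natural killer cells and from 0 to 0.65 for endothelial and vessel wall cells. Neural markers were present too, with list means from 2.48 to 4.15 for oligodendrocytes, 1.18 to 3.59 for astrocytes and 0.38 to 2.68 for neurons. The libraries fell into separate sets by the abundant transcript Cst3, with 14 at or below 20827 FPKM and 16 at or above 39503 FPKM. The low set held both naive, all CCI, both SNI and all fixed morphine libraries, SNT at 7 dpi replicate 2 and escalating morphine replicate 1. The labels name no batch that matches this split. SNT at 1 dpi replicate 1, SNT at 7 dpi replicate 1 and SNT at 2 dpi replicate 2 had the fewest genes at 1 FPKM or more (8005, 8466 and 8763, against 9215 to 10427 elsewhere). SNT at 7 dpi replicate 2 and CCI at 2 dpi replicate 1 correlated at 0.988 across genes, the second highest of all pairs of libraries.

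A cell enters mitosis when cyclin-dependent kinase 1 is switched on by cyclins A and B. The kinases Plk1, Aurka and Aurkb then drive spindle assembly, kinetochores tie chromosomes to microtubules, the spindle checkpoint holds back Cdc20 until all are attached, and the anaphase-promoting complex ends mitosis by degrading cyclin B. The genes of this machinery are transcribed together late in the cell cycle, under the MuvB complex with the transcription factors B-Myb and Foxm1, and are repressed in resting cells by the DREAM complex. Adult microglia divide rarely at rest, and their proliferation in the spinal cord after peripheral nerve injury is well known.

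Promoter elements linked to this shared timing are the cell cycle genes homology region (CHR), with the letters TTTGAA or TTCGAA, and the CCAAT box bound by NF-Y. Both were searched on either strand in the window from 250 bases before to 50 bases after the RefSeq transcription start (build GRCm38.p6, the mm10 assembly) for the 38 members with an entry. Of these 38 genes, 30 held TTTGAA (78.9%), where 17.9% of 32851 promoters of all genes did, and 3 held TTCGAA (7.89%, against 1.56%). CCAAT stood in 29 (76.3%, against 37.4%), and 27 held CCAAT together with either form of the CHR (71.1%, against 7.52%). A member was counted if any of its promoters held the letters, while the shares of all genes are per promoter. Counted per promoter, 32 of the 40 member promoters held TTTGAA (80%) and 29 held both elements (72.5%). TTCGAA is its own reverse complement. The motifs were searched separately, so matches that share letters were all kept. A match is a description of the letters and not evidence of binding. Ccna2, Foxm1, Aurkb, Kif20a, Tpx2 and Smc4 were not matched.

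The promoters below, from 250 bases before to 30 bases after the start, belong to the 6 members with the largest difference at 7 days of constriction injury among those holding both elements. They are shown as examples of these elements. All 44 members shared the highest libraries described next, and a relation between motif and level was not tested. Sequences are read 5′ to 3′ on the strand of the gene, with CHR and CCAAT letters of either strand in capitals. Prc1, which bundles antiparallel microtubules in the central spindle, lies on the plus strand and its window is chr7:80294201-80294480.
Prc1: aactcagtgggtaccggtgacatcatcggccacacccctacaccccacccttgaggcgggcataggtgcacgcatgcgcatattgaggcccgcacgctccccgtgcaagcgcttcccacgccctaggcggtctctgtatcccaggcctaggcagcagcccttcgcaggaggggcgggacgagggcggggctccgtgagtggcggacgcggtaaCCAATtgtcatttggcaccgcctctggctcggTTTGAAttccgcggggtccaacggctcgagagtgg
Mki67, which encodes the Ki-67 protein at the surface of mitotic chromosomes, lies on the minus strand at chr7:135716350-135716629 and holds TTTGAA at 2 places.
Mki67: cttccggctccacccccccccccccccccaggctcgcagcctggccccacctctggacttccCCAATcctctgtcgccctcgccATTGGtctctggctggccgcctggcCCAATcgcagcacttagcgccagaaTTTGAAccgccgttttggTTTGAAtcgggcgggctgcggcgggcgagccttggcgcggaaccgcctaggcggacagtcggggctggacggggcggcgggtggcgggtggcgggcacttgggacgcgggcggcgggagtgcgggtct
Bub1b, which encodes the checkpoint kinase BubR1, lies on the plus strand at chr2:118597961-118598240. It also holds TTTGAA 40 bases after the start, inside the searched window but past the printed bases.
Bub1b: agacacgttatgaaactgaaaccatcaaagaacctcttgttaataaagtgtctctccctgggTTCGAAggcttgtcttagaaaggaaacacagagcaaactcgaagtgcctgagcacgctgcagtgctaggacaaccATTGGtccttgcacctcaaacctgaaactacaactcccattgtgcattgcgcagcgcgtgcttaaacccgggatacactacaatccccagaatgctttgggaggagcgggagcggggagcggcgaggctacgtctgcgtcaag
Racgap1, a subunit of centralspindlin needed for cytokinesis, lies on the minus strand at chr15:99651627-99651906.
Racgap1: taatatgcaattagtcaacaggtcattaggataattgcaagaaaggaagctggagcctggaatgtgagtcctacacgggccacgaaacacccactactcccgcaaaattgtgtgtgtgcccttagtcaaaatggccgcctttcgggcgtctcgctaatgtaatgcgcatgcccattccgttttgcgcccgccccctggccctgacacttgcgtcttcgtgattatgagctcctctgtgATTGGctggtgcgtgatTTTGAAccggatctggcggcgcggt
Top2a, the topoisomerase that untangles sister chromatids, lies on the minus strand at chr11:99024160-99024439 and holds both forms of the CHR and several CCAAT boxes.
Top2a: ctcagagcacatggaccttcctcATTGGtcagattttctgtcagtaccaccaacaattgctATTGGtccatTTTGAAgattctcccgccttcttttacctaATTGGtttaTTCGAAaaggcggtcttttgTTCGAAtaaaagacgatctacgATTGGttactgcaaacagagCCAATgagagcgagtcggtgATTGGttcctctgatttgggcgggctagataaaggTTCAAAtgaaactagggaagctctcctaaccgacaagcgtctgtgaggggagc
Ncapg, a condensin subunit, lies on the plus strand at chr5:45669675-45669954.
Ncapg: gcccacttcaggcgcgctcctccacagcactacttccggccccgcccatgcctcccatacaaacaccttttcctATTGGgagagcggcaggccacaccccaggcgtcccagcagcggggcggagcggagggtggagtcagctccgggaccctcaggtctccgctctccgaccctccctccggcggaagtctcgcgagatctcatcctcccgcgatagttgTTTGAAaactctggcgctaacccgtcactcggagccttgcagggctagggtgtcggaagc

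The 44 genes shared the same libraries at the top of their range. For each of them the 4 highest of the 30 values came from CCI at 2 dpi replicate 2, CCI at 7 dpi replicate 1 and fixed morphine replicates 2 and 3. The highest of all lay in fixed morphine replicate 3 for 28 genes, in CCI at 7 dpi replicate 1 for 10 and in fixed morphine replicate 2 for 6. Among all genes tested, 406 (3.45%) had these same 4 libraries at the top. The 4 libraries were read off the 44 genes, which were chosen with earlier results of these data known. These shares are therefore a description and not a test. The ratio of the fourth highest value to the next ranged from 1.10 times for Ttk, a checkpoint kinase gene whose next value came from SNT at 1 dpi replicate 1, to 4.68 times for Racgap1. That next value lay in naive replicate 2 for 17 genes, fixed saline replicate 6 for 9, escalating saline replicate 9 for 8, CCI at 7 dpi replicate 2 for 4 and fixed morphine replicate 4 for 4. These 4 libraries belong to 3 groups, and in each group at least 1 other replicate lay far lower.

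**Figure D1:**
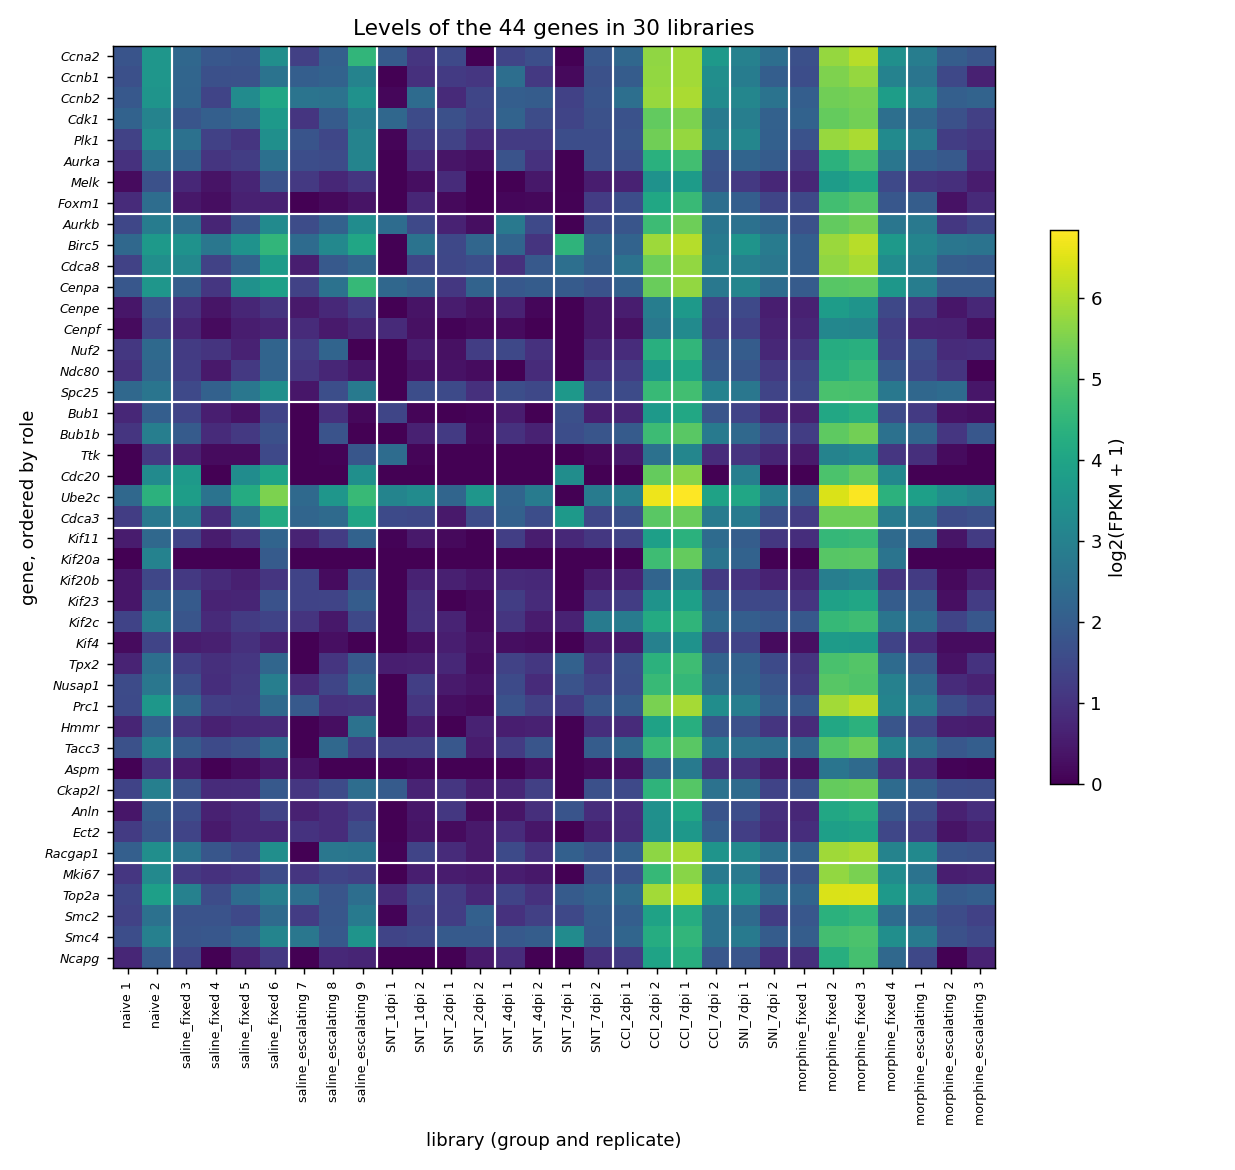
Log2(FPKM + 1) of each of the 44 genes (rows, ordered by role and separated by white lines) in the 30 libraries (columns, by group and replicate). CCI at 2 dpi replicate 2, CCI at 7 dpi replicate 1 and fixed morphine replicates 2 and 3 are the 4 brightest columns for all 44 genes.

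The mean of log2(FPKM + 1) over the 44 genes was 4.39 in CCI at 2 dpi replicate 2, 4.79 in CCI at 7 dpi replicate 1, and 4.75 and 4.88 in fixed morphine replicates 2 and 3. The other replicates of these groups stood at 1.48 for CCI at 2 dpi, 2.36 for CCI at 7 dpi, and 1.32 and 2.50 for fixed morphine. The naive libraries had 1.10 and 2.66. Fixed saline had 1.76, 0.99, 1.44 and 2.36 and escalating saline 0.99, 1.37 and 2.04. After transection the values were 0.56 and 0.94 at 1 dpi, 0.74 and 0.68 at 2 dpi, 1.11 and 0.94 at 4 dpi, and 1.02 and 1.31 at 7 dpi. Spared nerve injury had 2.29 and 1.52, and escalating morphine 2.02, 1.12 and 1.09. All 8 transection libraries thus lay between 0.56 and 1.31, in the lower part of the control range of 0.99 to 2.66 or under it.

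**Figure D2:**
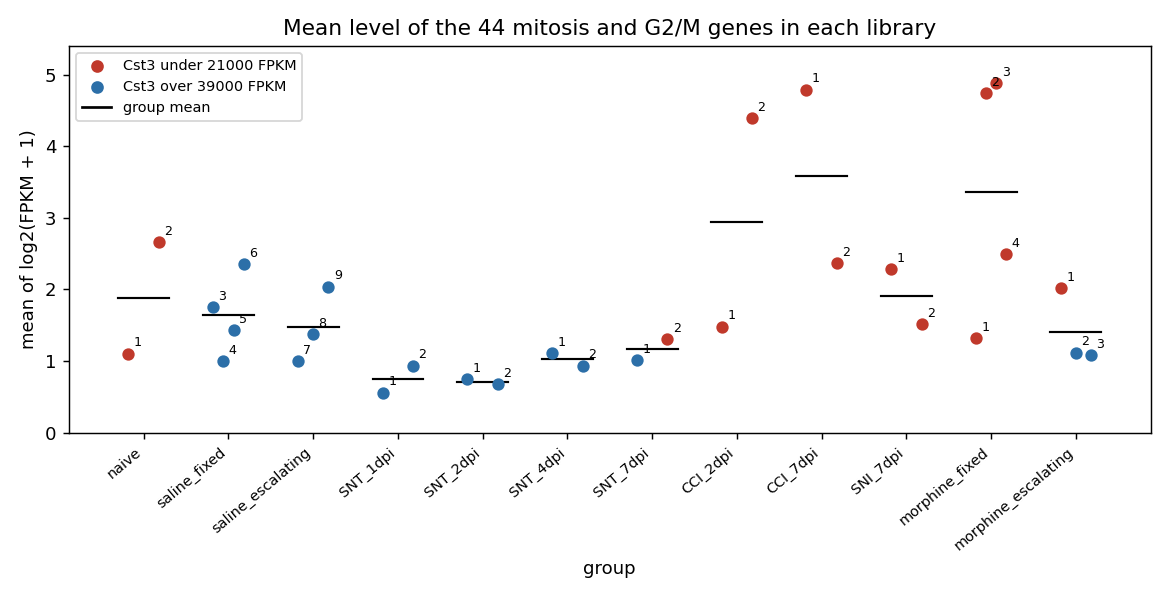
Mean of log2(FPKM + 1) over the 44 genes in each library (points, numbered by replicate), by group, with the group mean as a bar. Colour gives the set of libraries by Cst3; the 4 libraries from 4.39 to 4.88 belong to 3 groups and to the low set, and all transection libraries lie at or below 1.31.

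Members listed at 0 FPKM were unevenly spread: 25 in SNT at 1 dpi replicate 1, 20 in SNT at 7 dpi replicate 1 and 12 in escalating saline replicate 7, with at most 8 in any other library and 0 in the 4 libraries with the highest levels. Cdc20, the activator of the anaphase-promoting complex, was listed at 0 in 18 libraries and at 6.54 FPKM or more in the others. Kif20a, a kinesin of the cleavage furrow, was listed at 0 in 21 and at 2.91 FPKM or more in the others. A value of 0 in such a table can be an estimate that failed, so no fold change is given against a group at 0 for these genes. Annotated exons of 12 members share bases with another gene (Kif20a with Cdc23, Prc1 with Rccd1 and Foxm1 with Tex52 among them), and the counting is not stated to use strand. The values of these 12 are therefore uncertain, as are those of Ccnb1, Ccnb2 and Kif4, which have annotated pseudogene copies.

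After sciatic nerve transection, no mitotic gene was called higher or lower at any of the 4 days, and most means lay under those of the controls. Differences from the 9 controls, on the scale of log2(FPKM + 1) here and below, were positive for 1 of 44 members at 1 dpi (32.8% of all genes tested were positive), 0 at 2 dpi (29.4%), 0 at 4 dpi (53.1%) and 10 at 7 dpi (52.5%). Their medians were -0.92, -0.81, -0.53 and -0.48, where those of all genes tested were -0.25, -0.23, 0.03 and 0.03. None passed limma's moderated test at a Benjamini-Hochberg adjusted p under 0.05 (background 0.017% of genes at 1 dpi, 0% at 2 and 4 dpi, and 0.204% at 7 dpi, higher or lower). At an unadjusted p under 0.05, 4 members were lower at 1 dpi (11.8% of all genes), 7 at 2 dpi (5.84%), 0 at 4 dpi (0.944%) and 1 at 7 dpi (3.14%). None was higher on these days (4.37%, 1.49%, 1.39% and 5.74% of all genes). Values below those of all controls in both libraries were seen for 9 members at 1 dpi (4.33% of all genes), 13 at 2 dpi (1.91%), 3 at 4 dpi (1.16%) and 0 at 7 dpi (0.672%). None was above all controls in both libraries (1.9%, 0.383%, 2.39% and 3.91% of all genes). The 7 injury comparisons share their 9 controls and are not independent of each other.

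Among the drivers of mitotic entry, Ccnb1, the main mitotic cyclin, stood at 0 and 0.933 FPKM at 1 dpi, 1.24 and 1.12 at 2 dpi, 4.51 and 1.18 at 4 dpi, and 0.123 and 2.27 at 7 dpi. The controls ranged from 2.15 to 11.2 FPKM with a median of 3.43. Both libraries at 1 and at 2 dpi were thus below all 9 controls, and those at 4 and 7 dpi were not. Its difference at 1 dpi, -1.83 ± 0.73 (SE), had the lowest p of the members there (limma, adjusted p = 0.231). Aurka, the spindle pole kinase, was 0 and 0.813 FPKM at 1 dpi and 0.303 and 0.195 at 2 dpi, against 0.964 to 7.56 in controls, with differences of -1.44 and -1.55 (limma, adjusted p = 0.302 and 0.674). Birc5 (survivin, of the passenger complex) was 0 and 5.09 FPKM at 1 dpi, 1.77 and 3.80 at 2 dpi and 3.64 and 1.06 at 4 dpi, below or within the low end of its control range of 4.00 to 21.6. At 7 dpi it had 20.8 FPKM in replicate 1, near the highest control, and 3.69 in replicate 2, below all 9 controls. It had the largest difference of the members at 1 dpi, -2.01 ± 0.84 (limma, adjusted p = 0.255), which was -0.71 without SNT at 1 dpi replicate 1. At 2 dpi Kif23, a centralspindlin kinesin, was listed at 0 and at 0.108 FPKM against 0.334 to 3.61 in controls, a difference of -1.31 ± 0.54, and Aurkb, the passenger kinase, had -1.72 ± 0.73 (limma, adjusted p = 0.67 for both).

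Mki67 lay below all controls (0.949 to 8.24 FPKM, median 1.21) in both libraries at 1, 2 and 4 dpi. Its values were 0 and 0.497 FPKM at 1 dpi, 0.428 and 0.385 at 2 dpi, and 0.463 and 0.357 at 4 dpi. At 7 dpi it was listed at 0 in replicate 1 and stood at 2.39 FPKM in replicate 2, inside the control range. Top2a had 0.759 and 1.73 FPKM at 1 dpi, 1.32 and 0.708 at 2 dpi, 1.61 and 0.963 at 4 dpi, and 2.90 and 3.50 at 7 dpi, against 1.71 to 13.5 in controls. It was under every control at 2 and 4 dpi and reached the lower control values at 7 dpi. The difference of Mki67 ranged from -1.13 at 1 dpi to -0.54 at 7 dpi and that of Top2a from -1.44 at 2 dpi to -0.37 at 7 dpi, none of them past the adjusted threshold in limma's test. At 7 dpi the lowest p belonged to Ube2c, the ubiquitin-conjugating enzyme of the anaphase-promoting complex, listed at 0 and at 6.18 FPKM against 3.93 to 43.5 in controls. Its difference of -2.28 ± 0.89 had a limma adjusted p of 0.501, and it was called without replicate 2 (0.0460) and within the high Cst3 set (0.0435), both of which leave only the library listed at 0.

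Lists of cell type markers also differed after transection. All 13 neutrophil markers were lower on average than in the controls on each day, by a median difference of -1.99 on day 1, -1.36 on day 2, -1.16 on day 4 and -0.74 on day 7. Their list mean was 4.23 and 7.23 in the 1 dpi libraries and 6.74 to 9.60 in the controls. Saline replicates 6 and 9, with the highest list means of neutrophil markers (9.60 and 9.20), also had higher mitotic levels (2.36 and 2.04) than the other saline libraries. Other controls did not pair in this way. Naive replicate 2 had the highest mitotic mean of the controls, 2.66, with a neutrophil list mean of 6.76, near the lowest control. Fixed saline replicate 5 had a neutrophil list mean of 8.59 and a mitotic mean of 1.44. All 8 monocyte markers were lower on average on days 1 and 2 and 7 of 8 on days 4 and 7, with medians of -2.47, -0.95, -0.31 and -0.92. At 1 dpi 7 of the 8 had an unadjusted p under 0.05, and 0 passed the adjusted threshold (limma). At 7 dpi all 6 neuron markers (median 0.83) and all 6 oligodendrocyte markers (median 0.68) were higher on average. The part of such cells in the mitotic values was not tested. Without the 3 libraries with the fewest genes, the member medians were -0.68, -0.82, -0.53 and -0.38. Within the high Cst3 set, which holds the saline controls and not the naive ones, they were -0.80, -0.72, -0.41 and -0.56.

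After chronic constriction injury all 44 genes had higher means than in the controls at both days, but the 2 replicates of each day disagreed, and none was called. The median difference was 1.27 at 2 dpi and 1.84 at 7 dpi, beside 0.17 at each day over all genes tested, of which 63.1% and 63.5% were positive. At an unadjusted p under 0.05, 21 members were higher at 2 dpi (8.44% of all genes) and 37 at 7 dpi (8.23%), and none was lower (2.3% and 1.51%). At the adjusted threshold 0 members were called, with a background of 0.0085% at 2 dpi and 0% at 7 dpi (limma). Both libraries exceeded all 9 controls for 0 members at 2 dpi (8.66% of all genes) and for 4 at 7 dpi (8.4%): Foxm1, Ect2, Kif11 and Racgap1. In CCI at 2 dpi replicate 2 and CCI at 7 dpi replicate 1 each of the 44 exceeded every control, where 12.5% and 22.3% of all genes did. In their partners the numbers were 0 and 4 of 44, where 31.7% and 16.4% of all genes did.

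Foxm1 had the lowest p at both days. It stood at 2.05 and 15.9 FPKM at 2 dpi and 23.8 and 4.59 at 7 dpi, and at 0 to 4.40 FPKM in controls with a median of 0.348. The value of 2.05 FPKM was above 8 of the 9 controls, all but naive replicate 2, and the other 3 constriction values were above all 9. The differences were 2.2 ± 0.59 at 2 dpi (limma, adjusted p = 0.385) and 2.92 ± 0.59 at 7 dpi (adjusted p = 0.269). Without naive replicate 2, Foxm1 was called at 7 dpi, the only member so called. The cyclins went the same way, with Ccnb1 at 2.99 and 52.0 FPKM at 2 dpi and 58.8 and 9.47 at 7 dpi, Ccna2 at 3.87 and 50.7, then 58.0 and 12, and Ccnb2 at 4.61 and 53.7, then 62.2 and 8.78. Cdk1, the kinase they activate, had 2.31 and 35.4 FPKM, then 44.1 and 6.11, against 1.08 to 11.8 in controls. In each case the lower replicate lay within the control range and the higher one was at least 2.35 times the highest value outside the 4 libraries named above. Plk1, which acts from mitotic entry to cytokinesis, had 2.52 and 40.2 FPKM at 2 dpi and 52.9 and 6.85 at 7 dpi.

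The passenger complex showed 2.46 and 24.9 FPKM of Aurkb at 2 dpi and 39.5 and 5.25 at 7 dpi, against 0.637 to 9.10 in controls. Birc5 had 3.50 and 56.6, then 66.9 and 5.96, and its lower replicates were below or at the low end of the control range of 4.00 to 21.6. At the kinetochore, Cenpe, the motor that carries chromosomes to the spindle equator, had 0.459 and 6.45 FPKM at 2 dpi and 12 and 1.71 at 7 dpi, against at most 2.26 in controls. Of the checkpoint genes, Bub1b had 2.93 and 24.7 FPKM, then 33.1 and 5.88, with differences of 2.07 ± 0.68 and 2.68 ± 0.68 (limma, adjusted p = 0.387 and 0.269). Bub1, its partner kinase, had 0.621 and 12, then 16.1 and 2.47. Cdc20 was listed at 0 in CCI at 2 dpi replicate 1 and CCI at 7 dpi replicate 2 and had 36.3 and 47.8 FPKM in the other 2 libraries, above its highest control of 14.6.

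Of the spindle motors, Kif2c, a microtubule-depolymerising kinesin, had 6.17 and 17.2 FPKM at 2 dpi against 0.365 to 6.33 in controls, so that its lower replicate was near the highest control. At 7 dpi it had 21.4 and 4.24 FPKM. Its difference at 2 dpi was 2.13 ± 0.58 (limma, adjusted p = 0.385), and 1.46 without replicate 2. SNT at 7 dpi replicate 2, the library most like CCI at 2 dpi replicate 1, had 6.16 FPKM of Kif2c. Kif11, the motor that pushes spindle poles apart, had 1.54 and 13.5 FPKM at 2 dpi and 19.5 and 4.27 at 7 dpi, against 0.427 to 3.98 in controls. Tpx2, a spindle assembly factor, had 25.1 and 3.51 FPKM at 7 dpi, with a control maximum of 4.55. Prc1 had 2.97 and 42.9 FPKM, then 59.5 and 9.12, against 0.974 to 11.2. Aspm, a spindle pole protein of low level here, reached 6.04 FPKM at 7 dpi replicate 1, with 0.955 in replicate 2 and at most 0.971 in controls, a difference of 1.62 ± 0.40 (limma, adjusted p = 0.269). For cytokinesis, Racgap1 had 3.31 and 50.1 FPKM at 2 dpi and 60.2 and 10.7 at 7 dpi, against 0 to 9.42, so that both 7 dpi libraries were above the controls.

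On chromosomes, Mki67 had 2.29 and 23.1 FPKM at 2 dpi and 47.9 and 6.06 at 7 dpi, and its difference at 7 dpi was 2.79 ± 0.67 (limma, adjusted p = 0.269). Top2a had 4.11 and 58.0 FPKM, then 73.0 and 11.4, against a control maximum of 13.5. Ncapg had 1.23 and 14.6, then 18.6 and 2.60, with a difference of 1.74 ± 0.61 at 2 dpi (limma, adjusted p = 0.393). Without CCI at 2 dpi replicate 2 the median difference at 2 dpi turned to -0.18, and without replicate 1 it was 2.83. At 7 dpi it was 0.77 without replicate 1 and 3.15 without replicate 2, and leaving out replicate 2 brought 13 calls, Foxm1, Mki67, Top2a, Prc1 and Bub1b among them. All CCI libraries are in the low Cst3 set with the naive controls, and against those alone the medians were 1.03 and 1.65. Neutrophil markers were not higher in these groups, with list medians of -1.49 and -1.14, and monocyte markers had -1.21 and -0.68.

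After spared nerve injury at 7 dpi the genes overlapped with the controls. Of 44 members 35 had positive differences (51.1% of all genes did), with a median of 0.24 and values from -0.50 for Cdc20 to 1.11 for Foxm1. None was called (background 0% of genes, limma), 0 had an unadjusted p under 0.05, and in no member did both libraries lie outside the controls. Foxm1 had 3.14 and 1.71 FPKM, above 8 of the 9 controls, with a difference of 1.11 ± 0.59 (limma, adjusted p = 0.999). Mki67 had 5.86 and 2.35 FPKM, also above 8 of the 9 controls (difference 0.84 ± 0.67), Tacc3, a spindle pole protein, 4.94 and 4.69 (0.78 ± 0.67) and Bub1b 4.00 and 2.13 (0.73 ± 0.68). The median was -0.08 without replicate 1, 0.66 without replicate 2 and 0.05 against the naive controls alone.

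Constriction and transection libraries were available for the same days, 2 and 7 dpi, and at both days all 44 genes had higher means after constriction. At 2 dpi the median difference was 2.30 (0.42 over all genes tested, 71.2% of them positive). Both constriction libraries exceeded both transection libraries for 34 of 44 members (77.3%), where this held for 34.8% of all genes. At 7 dpi the median was 2.44 (0.15 over all genes, 59.3% positive), with 37 of 44 (84.1%) not overlapping, against 11.2% of all genes. At an unadjusted p under 0.05, 31 members were higher at 2 dpi (14.9% of all genes) and 39 at 7 dpi (4.06%), and 0 passed the adjusted threshold at either day (background 0%, limma).

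At 2 dpi the lowest p belonged to Kif2c, with 6.17 and 17.2 FPKM after constriction against 0.617 and 0.132 after transection, a difference of 3.08 ± 0.75 (limma, adjusted p = 0.22). Prc1 had 2.97 and 42.9 against 0.195 and 0.125 FPKM (3.51 ± 0.92), Foxm1 2.05 and 15.9 against 0.132 and 0 (2.75 ± 0.75) and Top2a 4.11 and 58.0 against 1.32 and 0.708 (3.12 ± 0.90), all with a limma adjusted p of 0.22. In each of these 4 even the lower constriction library exceeded both transection libraries. At 7 dpi Ect2, the exchange factor that activates RhoA for the cleavage furrow, had 11.6 and 3.14 FPKM against 0 and 0.477 (2.57 ± 0.62, limma, adjusted p = 0.332). Ccnb1 had 58.8 and 9.47 against 0.123 and 2.27 FPKM (3.71 ± 0.93), Foxm1 23.8 and 4.59 against 0.0327 and 1.32 (2.93 ± 0.75) and Mki67 47.9 and 6.06 against 0 and 2.39 (3.34 ± 0.86), each with a limma adjusted p of 0.344.

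These differences hold both the higher constriction and the lower transection values. The median fell to 0.68 at 2 dpi when CCI replicate 2 was left out, and to 1.32 at 7 dpi when CCI replicate 1 was left out. Leaving out a transection library brought calls at both days: 5 without SNT at 2 dpi replicate 1 (Ccna2, Foxm1, Kif2c, Prc1 and Top2a) and 21 without SNT at 7 dpi replicate 2. At 2 dpi both constriction libraries are of the low and both transection libraries of the high Cst3 set, so injury and set cannot be told apart. At 7 dpi, within the low set, where transection is left with 1 library, the median was 2.27.

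Under the fixed morphine regimen 10 of 44 members rose against fixed saline (22.7%, where 13.6% of all genes tested were called higher) and none fell, by limma at an adjusted p under 0.05. All 44 differences were positive (63.7% of all genes), with a median of 1.67 beside 0.22 over all genes tested. At an unadjusted p under 0.05, 32 were higher (72.7%, against 25.9%) and none was lower. The 4 morphine libraries exceeded all 4 saline libraries in 4 members (9.09%), a smaller share than the 22.1% of all genes for which they did so. Those 4 were Foxm1, Mki67, Kif2c and Cenpf. By role, 6 of the 13 spindle genes, 2 of the 5 chromosome-bound proteins, 1 of the 8 cyclins and kinases and 1 of the 6 kinetochore genes were called, and 0 of the passenger complex, the checkpoint and exit genes and the cytokinesis genes.

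Foxm1 stood at 1.78, 26.5, 30.6 and 2.64 FPKM under fixed morphine and at 0.348, 0.191, 0.551 and 0.534 FPKM under fixed saline, a difference of 2.79 ± 0.68 (limma, adjusted p = 0.0157). Even its lowest morphine value was above the highest saline value. Mki67 had 2.43, 51.9, 43.5 and 8.86 FPKM against 1.21, 0.949, 1.10 and 2.01, a difference of 2.88 ± 0.71 (limma, adjusted p = 0.0171). Kif2c had 2.68, 22.8, 25.4 and 5.34 FPKM against 2.51, 0.745, 1.27 and 1.60, a difference of 2.17 ± 0.54 (limma, adjusted p = 0.0179). For Mki67 and Kif2c the lowest morphine library lay only just above the highest saline library. Cenpf, a kinetochore and nuclear matrix protein of late G2, had 0.673, 8.01, 7.59 and 1.4 FPKM against 0.638, 0.150, 0.468 and 0.607 (1.53, limma, adjusted p = 0.0337).

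The other called members overlapped with saline through morphine replicate 1. The differences were 2.33 for Ckap2l, a spindle microtubule protein (limma, adjusted p = 0.0337), 2.29 for Ncapg (0.0352), 2.02 for Tacc3 (0.0383), 2.48 for Prc1 (0.0424), 2.71 for Kif20a (0.0451) and 1.29 for Aspm (0.0463). Prc1 had 2.72, 58.8, 70.2 and 7.42 FPKM against 3.96, 1.41, 1.26 and 4.07. Kif20a was listed at 0 in morphine replicate 1 and in saline replicates 3, 4 and 5, and had 32.7, 33.0 and 5.25 FPKM in the other morphine libraries and 2.91 in saline replicate 6. Members outside the called set showed the same spread: Top2a had 3.72, 86.1, 87.6 and 11.9 FPKM against 7.00, 1.99, 4.22 and 6.65 (2.23 ± 0.77, limma, adjusted p = 0.0578), Ccnb1 2.08, 44.8, 52.7 and 7.15 against 3.72, 2.15, 2.25 and 5.08 (1.93 ± 0.76, adjusted p = 0.0873) and Racgap1 3.40, 56.7, 62.1 and 7.30 against 5.19, 2.55, 1.77 and 9.42 (1.93 ± 0.86, adjusted p = 0.127). Replicate 1 was within the saline range for Top2a and Racgap1 and under it for Ccnb1, replicate 4 was within it for Racgap1 and above it for the other 2, and replicates 2 and 3 were far above.

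The 10 calls rest on those libraries. Without fixed morphine replicate 2, and likewise without replicate 3, 0 members were called, with adjusted p of 0.0549 and 0.0515 for Foxm1 and medians of 1.21 and 1.18. Without replicate 1, 35 were called. Leaving out a saline library left 6, 3, 1 and 4 calls for replicates 3, 4, 5 and 6 in turn, all among the 10. Foxm1, Mki67 and Kif2c were called under each of the other pseudocounts, filters and scalings tried. Rescaling each library to a common sum raised the count to 21 and median-ratio scaling lowered it to 6, as the median of all genes moved from 0.22 to 0.53 and 0.04. Relative to that median the members stood at 1.45, and at 1.72 and 1.43 under these scalings. All fixed morphine libraries were in the low and all fixed saline libraries in the high Cst3 set, so regimen and set cannot be told apart. Against the markers of other cells, the neutrophil list was lower under fixed morphine, with all 13 markers negative, 3 called lower and a median of -1.90. In the libraries with the highest mitotic levels, morphine replicates 2 and 3, its list means were 6.32 and 5.47, and in replicate 4 it was 8.61. Markers of neural cells had mostly positive differences, like the mitotic genes: 6 of 6 for neurons (median 0.50), 6 of 6 for oligodendrocytes (0.35), 5 of 6 for astrocytes (0.70) and 2 of 2 for oligodendrocyte precursors (0.30) were positive, none of them called. Astrocyte list means were 2.2, 2.74, 3.32 and 2.36 under fixed morphine and 2.51, 3.59, 1.18 and 1.27 under fixed saline, and those of neurons 1.25, 1.53, 2.25 and 1.36 against 0.93, 1.75, 0.38 and 0.55. Calls were also found in other marker lists, where 13.6% of all genes were called higher and 4.46% lower. Of the 3 markers of T, B and natural killer cells tested, 33.3% were called lower. Of the 2 markers of endothelial and vessel wall cells tested, 50% were called lower. Of the 10 microglia markers 10% were called higher and 10% lower, and no monocyte marker was called. The part of other cells in the result was not tested.

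Under the escalating regimen the genes showed no common shift. Of 44 members 18 had positive and 25 negative differences (62.1% of all genes were positive), 1 was at 0, and the median was -0.08 beside 0.16 over all genes. None was called (background 0.034%, limma), none had an unadjusted p under 0.05, and no member's groups were without overlap (13.3% of all genes were higher and 5.02% lower without overlap). Foxm1 had 3.02, 0.259 and 0.761 FPKM under morphine against 0, 0.130 and 0.284 under saline (0.87 ± 0.78, limma, adjusted p = 0.575). Mki67 had 5.07, 0.487 and 0.536 against 1.10, 1.63 and 1.47 FPKM, and Top2a 8.42, 2.82 and 3.11 against 4.54, 2.50 and 4.53. Morphine replicate 1, of the low Cst3 set, was the highest of the 3 in each case. Kif2c had the lowest p, with 4.24, 1.62 and 2.64 FPKM against 1.04, 0.365 and 1.78 (0.90 ± 0.63, limma, adjusted p = 0.465), followed by Tacc3 (0.94 ± 0.71, adjusted p = 0.504) and Bub1b (1.14 ± 0.88, adjusted p = 0.515). Cdc20 was listed at 0 in all 3 morphine libraries and in saline replicates 7 and 8. The median was 0.15 without saline replicate 9 and -0.29 within the high Cst3 set.

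The regimens were compared by testing the difference of their 2 differences. It was positive for all 44 members (54.7% of all genes), with a median of 1.83 beside 0.06, and it passed the adjusted threshold in none (background 0.0085% of genes, limma). At an unadjusted p under 0.05, 6 members were higher (13.6%, against 5.76%) and none was lower. The lowest p were those of Mki67 (2.87 ± 1.09, limma, adjusted p = 0.358), Smc4, a condensin and core chromosome protein (2.26 ± 0.89, 0.358), Cenpf (1.70 ± 0.69, 0.371) and Ccnb1 (2.76 ± 1.15, 0.381). The members called under fixed morphine alone are therefore not shown to respond differently to the 2 regimens. Without fixed morphine replicate 2 or 3 the median was 1.37 and 1.33.

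**Figure D3:**
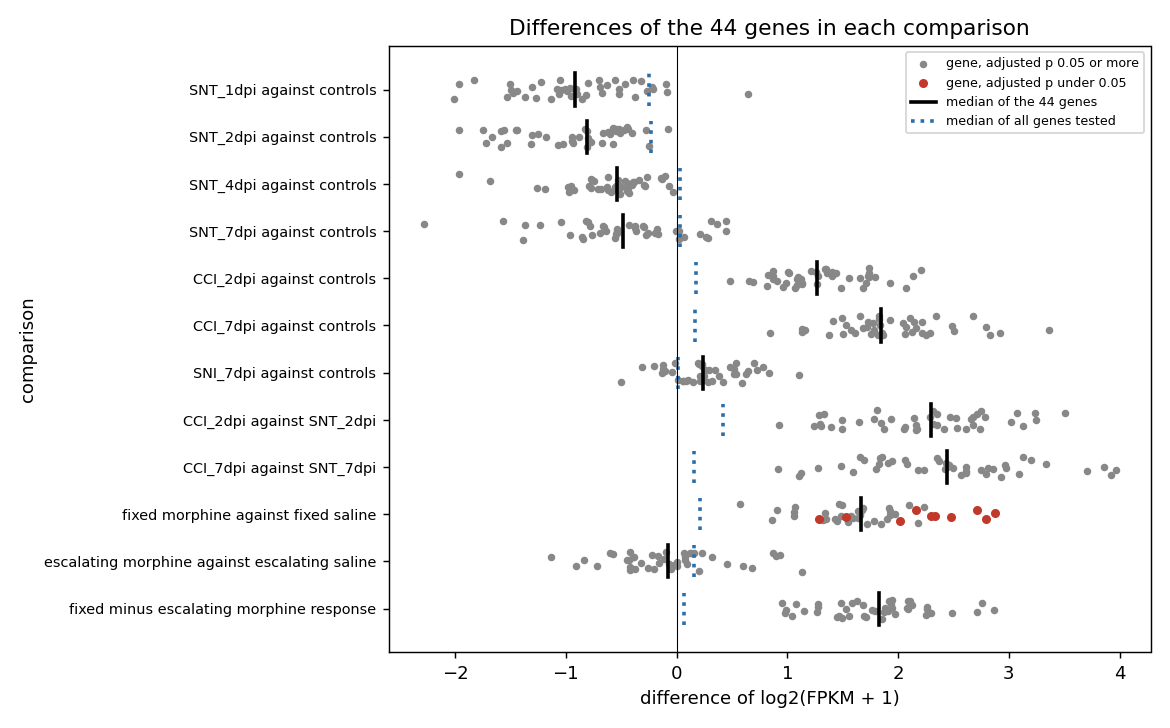
Differences of log2(FPKM + 1) for the 44 genes in each comparison (points), with the median of the 44 genes (black bar) and of all genes tested (dotted blue bar). Red points passed an adjusted p under 0.05 in limma's test; these are 10 genes under fixed morphine, while the medians of constriction injury lie at 1.27 and 1.84 with 0 such points.

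The 3 kinds of control did not differ in any member by limma's moderated F-test (0 of 44 called, background 0.102%, lowest adjusted p = 0.627 for Foxm1), and 0 had an unadjusted p under 0.05 (13.5% of all genes). The spread was between replicates: naive replicates 1 and 2 had 1.10 and 8.24 FPKM of Mki67, 0.785 and 4.40 of Foxm1, 1.71 and 13.5 of Top2a and 1.89 and 11.2 of Prc1. Naive replicate 2 was the highest control for each of these 4. For other members the highest control was a saline library, as in replicate 6 for Ccnb2 (15.6 FPKM) and replicate 9 for Cenpa, the histone of centromeres (22.8 FPKM). Saline replicates 6 and 9 had 506 and 106 FPKM of Elane and 221 and 50.3 FPKM of Mpo, enzymes of neutrophil precursors, where naive replicate 2 had 29.3 and 13.8. Fixed saline replicate 5 also had 154 FPKM of Elane, more than replicate 9, with a mitotic mean of 1.44. Fixed morphine replicates 2 and 3 had 14.4 and 8.15 FPKM of Elane. What such precursors contribute to the control levels was not tested.

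Other cell cycle lists were read in the same fits. Of 57 further mitotic genes tested, which include separase, the remaining condensin subunits and more kinetochore proteins, 45 (78.9%) had the same 4 libraries at the top, and of 47 genes of DNA replication and the G1/S transition 32 (68.1%) did. Of the 12 subunits and partners of DREAM and MuvB, 4 did (33.3%), of the 15 core subunits and activators of the anaphase-promoting complex 1, and of the 12 regulators of G1 1. None of the marker genes of microglia, neutrophils, monocytes or 7 other cell types did. Under fixed morphine, where 13.6% of all genes tested were called higher and 4.46% lower, 13 of the 57 mitotic genes rose (22.8%; Ncapg2 by 2.37, Espl1 by 1.46, Kif18b by 2.32 and Ncapd3 by 1.62 had the lowest p) and none fell. Of the 47 replication genes 5 rose (10.6%, under the share of all genes), Cdc25a by 1.48, Ccne1 by 2.21, Cdc6 by 1.64 and Mcm6 by 2.19 among them. Of DREAM and MuvB 5 of 12 rose (41.7%), with Lin54 at 1.58, Rbbp4 at 1.05, Rbl1 at 1.73 and Tfdp1 at 1.45. Of the 12 G1 regulators 1 rose (8.33%) and 2 fell (16.7%): Rb1 rose by 1.23, while Cdkn1c fell by 1.04 and Cdkn1b fell by 1.19, both of them inhibitors of cyclin-dependent kinases. Of the anaphase-promoting complex 2 of 15 rose (13.3%, near the share of all genes), Anapc5 by 1.02 and Anapc1 by 1.35, and 1 fell (6.67%), Cdc26 by 1.06. In no injury comparison was a gene of these lists called.

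Replication genes did not track mitotic genes in every library. In CCI at 2 dpi replicate 1 the replication list had a mean of 2.66 and in SNT at 7 dpi replicate 2 one of 2.46, above the control range of 1.42 to 2.37. Their mitotic means of 1.48 and 1.31 were inside the control range of the mitotic genes. These means were not rescaled. The median-ratio factors, by which values are divided, were 1.31 and 1.27 in these libraries and 0.85 to 1.11 in the controls. Rescaling would thus bring the replication means closer to the controls. In CCI at 2 dpi replicate 1, 21 of the 47 replication genes (44.7%) exceeded all controls, where 31.7% of all genes tested did. In SNT at 7 dpi replicate 2, 16 (34%) did, near the 30.8% of all genes. Of the 44 mitotic genes 0 did in either. Their neuron marker means were 2.05 and 2.43, in the upper part of the control range of 0.38 to 2.68, and the part of such RNA was not tested. Mcm6, a subunit of the replicative helicase, had 41.5 FPKM in CCI at 2 dpi replicate 1 and 29.7 in SNT at 7 dpi replicate 2, beside 47.1 in CCI at 2 dpi replicate 2 and 60.3 in CCI at 7 dpi replicate 1. Mcm2 had 21.5 and 19.1 FPKM in the first pair and 24.5 and 30.9 in the second. Mki67 by contrast had 2.29 and 2.39 FPKM in the first pair and 23.1 and 47.9 in the second, and Rrm2, of ribonucleotide reductase, 8.0 and 5.1 against 45.9 and 60.3. Compared by group, CCI at 2 dpi exceeded all controls in both libraries for 20 of 47 replication genes and for 0 of 44 mitotic genes (8.66% of all genes), though none was called by limma. CCI at 2 dpi replicate 1 and SNT at 7 dpi replicate 2 are the libraries that correlated at 0.988 across genes.

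**Figure D4:**
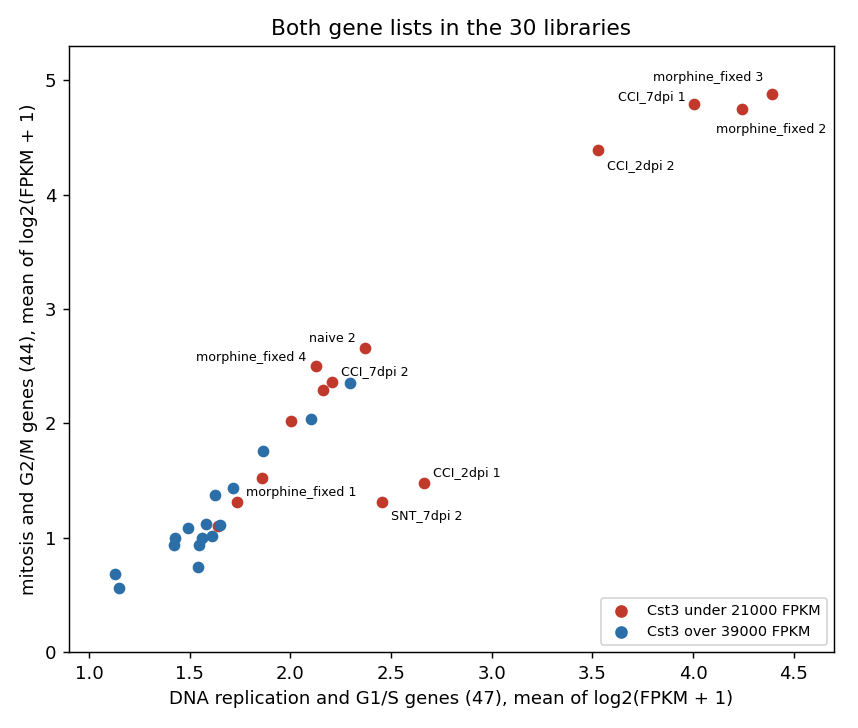
Mean of log2(FPKM + 1) over 47 genes of DNA replication and G1/S (x axis) and over the 44 mitosis and G2/M genes (y axis), 1 point per library, coloured by the set of libraries by Cst3. CCI at 2 dpi replicate 1 (2.66, 1.48) and SNT at 7 dpi replicate 2 (2.46, 1.31) lie to the right of the other libraries at their mitotic level.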

How the data were processed

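Bulk RNA libraries of CD11b-selected lumbar cord cells were read from 1 table of FPKM values that the authors deposited. Per the submitters' processing notes, the mm10 build, DESeq2 and featureCounts 1.4.6 were used, as well as Cufflinks 2.2.1 and HISAT2 2.0.5.1. Which tool made the FPKM values, the annotation and any filter are not given in the sources used here, and without counts the depth is unknown. Of 24888 rows, 826 with 281 repeated symbols were left out. Genes with at least 1 FPKM in at least 2 of 30 libraries (11759) were tested as log2(FPKM + 1), a scale that understates changes of low genes, with limma 3.58.1 (moderated, trend, two-sided; R 4.3.3) and Benjamini-Hochberg adjustment over all of them at 0.05. The injury fit held 7 injury groups and the 9 controls pooled, the morphine fit 14 libraries, and the control comparison was an F-test. Per library values are given for 16 members of known role (Mki67, Top2a, Foxm1, Cdk1, 2 B-type cyclins, Plk1, Aurkb, Birc5, Cdc20, Bub1, Kif11, Cenpe, Tpx2, Prc1 and Racgap1), as far as they carry a result. Also named are the called members or the 4 of lowest p in a comparison, the 2 furthest against the median, and up to 4 genes of lowest p per pathway list. Others, such as Ccna2, Cenpa, Mcm2, Rrm2, Elane and Mpo, were picked after their values were seen. The members and lists were chosen with earlier results of these data known. The script was tested on simulated data. Alternatives covered the pseudocount, filters, scaling, the controls used, a replicate block and libraries left out; those by Cst3 set were added after seeing the data. Replicate numbers showed no common pairing of libraries: over 21 pairs of groups the correlation of deviations ran from -0.43 to 0.22.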

Additional observations from a re-analysis of the deposited data

Results flagged for a closer look

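A gap between the highest or lowest library and the next that was large for the group's range marked 3 values in 51 such tests, where chance marks about 1 in 20. Cdc20 was at 0.0 on the log2(FPKM + 1) scale in fixed saline replicate 4, which lists it at 0 FPKM, while the other 3 fixed saline libraries had 8.98 to 14.6 FPKM. Among the 9 controls, naive replicate 2 stood apart for Mki67, at 3.21 (8.24 FPKM, with 2.01 FPKM the next highest), and for Foxm1, at 2.43 (4.40 FPKM, with 0.785 FPKM the next highest).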

How the results depend on the processing

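Counts of called members stayed within 1.5 times the reported count in 210 alternatives and moved in 19. A count of 0 in both fits was taken as held, and only fixed morphine had calls in the main fit. Its 10 calls became 3 to 21 under other settings and 0 to 35 with single libraries left out, so that count was not stable. Medians of the 44 genes held in 199, moved in 10 and changed sign in 5. The replicate block gave 0 called members in each comparison that it could be fitted to, with medians of -1.22, -1.19, -0.83 and -0.76 for SNT at 1, 2, 4 and 7 dpi, 1.03 and 1.65 for CCI at 2 and 7 dpi and 0.05 for SNI, the values against naive controls alone. In that fit the saline libraries formed a block of their own. The correlation of deviations of same-numbered libraries had a median of -0.01 and ran from -0.43 to 0.22, with 4 of 21 pairs of groups over 0.1. A common pairing by number was thus not seen, though single pairs may share something. A pseudocount of 0.1 moved the medians to -2.19 for SNT at 1 dpi, 3.57 for CCI against SNT at 2 dpi and 3.93 at 7 dpi. Under fixed morphine it left 5 calls, no filter 3, median-ratio scaling 6, a fit of all 30 libraries 6 and rescaling to a common sum 21. Within the high Cst3 set 1 member, Ube2c, was called for SNT at 7 dpi.

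With single libraries left out, called members ranged from 0 to 1 for SNT at 7 dpi, 0 to 13 for CCI at 7 dpi, 0 to 5 for CCI against SNT at 2 dpi, 0 to 21 at 7 dpi and 0 to 35 for fixed morphine. Medians ranged from -0.18 to 2.83 for CCI at 2 dpi, 0.77 to 3.15 for CCI at 7 dpi, -0.075 to 0.66 for SNI, 0.68 to 3.73 for CCI against SNT at 2 dpi, 1.32 to 3.52 at 7 dpi and -0.42 to 0.15 for escalating morphine. The lowest CCI median at 2 dpi was without its replicate 2, and the SNI median below 0 was without its replicate 1. Single genes changed sign in 13 alternatives. Ttk after SNT at 1 dpi went to -0.52 without the 3 libraries with the fewest genes and ranged from -0.52 to 1.81 with single libraries left out. At 7 dpi Spc25 went to -0.57 without those 3 libraries and -0.88 within the low Cst3 set, and ranged from -0.57 to 1.47, while Bub1b went to -0.28 against naive controls alone or with the replicate block and -0.18 within the low set. After SNI Cdca3 went to 0.25 against naive controls alone, with the replicate block or within the low set. With single libraries left out Cdca3 ranged from -0.86 to 0.23 and Cdc20 from -1.96 to 0.95. The cause of these changes was not tested. Depth is unknown, and with 2 libraries in each injury group the precision of single genes is low.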
